A study of Mus musculus with 10 samples.

Results

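T cell receptor gene segments are the germline pieces from which each T cell builds its antigen receptor, and their counts were described here in regulatory T cells (Tregs) of the mouse colon. The segments were the rows of the deposited gene table annotated as receptor variable (V), diversity (D), joining (J) or constant (C) genes with a summed count of 20 or more over the 10 libraries. This held for 128 of 226 annotated segment genes, among 54532 genes in all. They were 84 V, 1 D, 35 J and 8 C segments, of which 86 belong to the alpha locus, 30 to beta, 9 to gamma and 3 to delta. Loci were read from the start of the gene name (Tra, Trb, Trg, Trd), and 8 segments whose names start with Tcrg were placed with the gamma locus. The segments were chosen by their summed count over all libraries, which is used only to describe them. At the threshold, Tcrg-V7, Trdv1, Trav3-1 and Trbj1-4 had 20 counts each, and just below it Trbj1-2 had 19 while Trav8-1 and Trav14-1 had 18. The 98 genes below the threshold held 554 counts in all, against 54124 counts, or 99.0% of the receptor counts, on the 128 segments.

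In the developing T cell a V segment is joined to a J segment, with a D segment between them in the beta and delta chains, and the joined exon is spliced to a constant segment in the transcript. Most T cells, Tregs included, carry a receptor made of an alpha and a beta chain, whereas gamma-delta T cells carry a gamma and a delta chain. All cells of a clone share the same V and J segments, while the constant segments are common to many clones. Some T cells have a near-fixed alpha chain: invariant natural killer T cells join Trav11 to Traj18, and mucosal-associated invariant T cells join Trav1 to Traj33.

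The Tumor group (5 libraries) came from colon tumours of mice with the Apc Min/+ and Foxp3 DTR alleles, and the WT group (5 libraries) from the colon of Foxp3 DTR mice without the Apc allele. Apc Min/+ shortens the Apc protein, which restrains Wnt signals, and leads to intestinal tumours, while Foxp3 DTR places a diphtheria toxin receptor under the control of Foxp3, the transcription factor that defines Tregs. All mice were male, 16 weeks old and on the C57BL/6 strain, and the sorted cells carried CD45, CD3 and CD4 together with CD25 and GFP. Libraries were made by Smart-seq2, which copies full-length cDNA from little RNA, and the labels do not say if each sample is an animal of its own, so the p-values below speak to the spread among samples, which may be technical.

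Total counts were 3054435 to 7747699 in Tumor and 1676229 to 8412887 in WT libraries. Several WT libraries stood apart. WT 1 and WT 2 held 5096 and 9741 CPM (the library total scaled to 1e+06 counts) of 6 epithelial marker genes, against 15.7 to 2212 CPM in Tumor and 64.4 to 104 CPM in WT 3 to 5. In WT 3, WT 4 and WT 5, the predicted gene Gm10800 took 9.92%, 22.3% and 26.5% of the library total, against 0.844 to 5.77% in the other 7 libraries. Summed counts of 6 macrophage markers were 1200 to 5609 CPM in Tumor and 23.1 to 116 CPM in WT. Foxp3 had 35.9 to 117 CPM in Tumor and 3.33 to 40.4 CPM in WT. In such bulk libraries fewer cells of a type and less RNA per cell cannot be told apart, and how far these features account for the receptor values was not tested.

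The results turn on the beta constant segments, a few beta V segments and a few J segments, whose sequences are given from the GENCODE M21 transcripts (GRCm38, the build mm10), on the plus strand, 5′ to 3′. The J segments shown are the Traj and Trbj segments with the highest mean share of their class in each group, Traj18 and Traj33 of the invariant receptors, and Traj15, which was added after its values were seen. In them capitals mark the letters TTNGGNNNNGG, which spell the conserved phenylalanine and glycines of the J region. These letters were found on the coding strand of 57 of 70 annotated J segments (81.4%) and on the other strand of 0. Traj33 and Trbj1-6 do not hold them.
Traj12: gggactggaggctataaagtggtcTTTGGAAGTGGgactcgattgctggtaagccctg
Traj27: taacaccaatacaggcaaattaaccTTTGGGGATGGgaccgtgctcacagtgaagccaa
Traj18: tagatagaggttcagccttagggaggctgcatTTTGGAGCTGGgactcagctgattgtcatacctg
Traj15: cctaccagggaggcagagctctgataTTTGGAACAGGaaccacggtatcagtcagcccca
Traj33: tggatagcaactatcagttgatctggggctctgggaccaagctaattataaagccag
Traj6: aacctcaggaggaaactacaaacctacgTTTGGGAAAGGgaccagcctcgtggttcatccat
Traj46: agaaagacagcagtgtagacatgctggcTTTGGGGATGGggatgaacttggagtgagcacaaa
Trbj2-1: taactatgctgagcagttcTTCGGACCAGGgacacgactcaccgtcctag
Trbj2-7: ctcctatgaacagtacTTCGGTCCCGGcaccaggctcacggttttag
Trbj1-6: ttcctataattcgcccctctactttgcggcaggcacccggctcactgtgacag

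For the Trbv segments with the highest mean share in each group and the Trav segments with the largest shares of any library, the last 40 bases of the transcript are shown, since this is the end that is joined. Capitals mark the letters TGTGC, which include the codon of the conserved cysteine; they occur in the last 40 bases of 115 of 144 annotated V segments (79.9%), and their reverse complement GCACA in 1 (0.694%). Trbv1 does not hold these letters there. Trbv16 lies at chr6:41151740-41152230, Trbv1 at chr6:40891229-40891885, Trbv13-2 at chr6:41121396-41121832, Trbv2 at chr6:41047340-41047995, Trav7-6 at chr14:53716716-53717291 and Trav13d-4 at chr14:53072763-53073274.
Trbv16: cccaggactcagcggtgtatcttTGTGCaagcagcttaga
Trbv1: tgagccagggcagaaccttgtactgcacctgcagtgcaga
Trbv13-2: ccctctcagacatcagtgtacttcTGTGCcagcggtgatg
Trbv13-3: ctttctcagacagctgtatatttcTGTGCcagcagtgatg
Trbv2: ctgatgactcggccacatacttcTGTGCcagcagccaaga
Trav7-6: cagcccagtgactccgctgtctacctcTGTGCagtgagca
Trav13d-4: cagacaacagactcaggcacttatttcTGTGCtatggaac

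The beta locus has a pair of constant segments, Trbc1 (chr6:41538218-41539881) and Trbc2 (chr6:41546730-41548352), and a beta chain may use either. Their coding sequences were compared to show why their counts are uncertain. Of 521 coding positions 498 were identical (95.6%), and 22 of the 23 differences lay between positions 376 and 521, the stretch shown here with the differing bases in capitals.
Trbc1: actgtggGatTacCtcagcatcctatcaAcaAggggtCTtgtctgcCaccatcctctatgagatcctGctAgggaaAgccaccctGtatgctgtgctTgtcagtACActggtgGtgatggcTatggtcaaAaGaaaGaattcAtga
Trbc2: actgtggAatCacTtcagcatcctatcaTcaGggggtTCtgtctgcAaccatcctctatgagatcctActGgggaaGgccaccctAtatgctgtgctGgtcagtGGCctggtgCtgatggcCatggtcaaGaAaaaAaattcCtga

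Of all runs of 50 bases in a transcript, 41.1% for Trbc1 and 44.0% for Trbc2 were shared with another gene. The alpha constant segment Trac shared none. Among V segments the alpha locus was the repetitive one: 51 of 57 Trav segments shared such runs with another gene, against 3 of 20 Trbv segments. The median Trav segment shared 44.2% of its runs, and no Trbv segment more than 1.19%. How the authors counted reads that match several genes is not given in the sources used here, so counts of single Trav segments and the split between Trbc1 and Trbc2 are uncertain.

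Receptor transcripts were more abundant in every Tumor library than in any WT library. The 128 segments together had 1454, 1925, 2267, 2168 and 1402 CPM in Tumor 1 to 5, against 116, 317, 690, 655 and 340 CPM in WT 1 to 5. The means were 1843 ± 399 CPM in Tumor and 424 ± 243 CPM in WT (SD, n = 5 each), a log2 ratio of 2.12. Relative to the CD3 chains, which hold the receptor at the cell surface, the groups overlapped. Per count of Cd3d, Cd3e and Cd3g there were 0.627 to 0.988 counts of Trac, Trbc1 and Trbc2 in Tumor and 0.454 to 1.27 in WT.

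Trbc2 was the most abundant segment, with 2156, 2200, 5561, 4446 and 2212 counts in Tumor 1 to 5 and 105, 696, 323, 714 and 42 counts in WT 1 to 5. Trbc1 had 1577, 1300, 4396, 2949 and 1647 counts in Tumor and 84, 591, 144, 446 and 74 counts in WT. Trac (chr14:54220521-54224206) had 1055, 1164, 4507, 2037 and 700 counts in Tumor and 25, 415, 203, 136 and 6 counts in WT. In CPM the 5 Tumor libraries all exceeded the 5 WT libraries for each of the 3 segments, and WT 1 and WT 5 were the lowest for each. The means in CPM were 662 ± 102 in Tumor and 116 ± 108 in WT for Trbc2, 464 ± 71.5 and 75.7 ± 56.9 for Trbc1, and 352 ± 151 and 45.7 ± 48.0 for Trac. Trbc2 made up 55.9 to 62.9% of the beta constant counts in Tumor and 36.2 to 69.2% in WT, so the balance of the pair overlapped between groups.

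**Figure D1:**
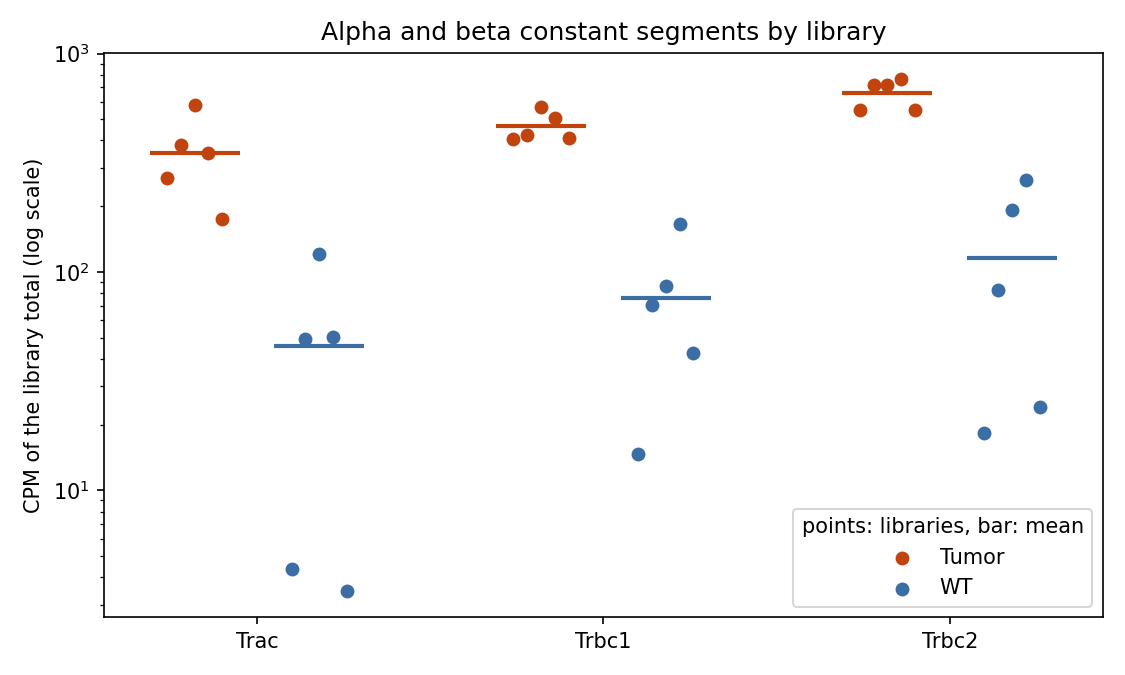
CPM of the library total (log scale) of the alpha and beta constant segments in each library, Tumor left and WT right of each name, with a bar at the group mean. All 5 Tumor libraries lie above all 5 WT libraries for each segment on this scale, while scaling to the 3 segments themselves, which holds their sum fixed, puts the fitted differences of Trbc1 and Trbc2 at -0.26 and -0.01.

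Differences between single segments were tested with edgeR's quasi-likelihood test over 21414 genes, with TMM-scaled library sizes and Benjamini-Hochberg adjustment over all of them. Of the 128 segments 16 passed the filter on low counts, and 2 of these were called higher in Tumor at an adjusted p below 0.05, where 1.37% of all tested genes were called higher. The filter asks for counts in 5 libraries, which Tumor libraries alone can supply, so the number called among the segments that passed it says little about receptor segments as a group. None was called lower, where 0.219% of all tested genes were, and 1.59% were called in either direction. At an unadjusted p below 0.05, 9 of the 16 were higher and 0 lower, against 7.75% of all tested genes higher. On TMM-scaled CPM the groups did not overlap for 7 of the 16, each higher in Tumor, and for 0 lower in Tumor, beside 4.38% and 1.57% of all tested genes. DESeq2 called 5 of the 16 higher and 0 lower, where it called 3.16% of all tested genes higher and 4.48% lower. Limma voom also called 5 higher and 0 lower, where 2.12% and 0.112% of all tested genes were called. Without WT 1 and WT 2, edgeR called 7 of 34 tested segments higher and 1, Trav7-6, lower (-4.25 ± 1.31, adjusted p = 0.0477), where 6.40% and 1.50% of all tested genes were called. Without WT 3, WT 4 and WT 5 it called 3 of 77 higher and 0 lower, where 2.32% and 2.09% of all tested genes were. It called 0 of 18 without Tumor 3 and 0 of 26 without WT 1, where 0.266% and 0.275% of all tested genes were called higher. With no filter on low counts it called 6 of all 128 segments higher and 1, Trav13d-4, lower (-4.88 ± 1.37, adjusted p = 0.0379), where 0.934% and 0.665% of all tested genes were called.

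The called segments were the beta V segment Trbv1 and the constant segment Trbc1. Trbv1 was higher in Tumor by 4.90 ± 0.99 on the log2 scale (± SE, adjusted p = 0.0180) and was not called without Tumor 2 (adjusted p = 0.0768), Tumor 3 (0.0665) or WT 1 (0.0711). Trbc1 had a log2 fold change of 2.83 ± 0.69 (adjusted p = 0.0439). It was not called without any 1 of the Tumor libraries or without WT 1, WT 2 or WT 3 (adjusted p = 0.0533 to 0.144), nor with RLE, upper-quartile or no composition factors (0.0519 to 0.0652). Trac (3.27 ± 0.86, adjusted p = 0.0605), Trbc2 (2.75 ± 0.78, 0.0847) and Trbv13-2 (4.33 ± 1.15, 0.0641) did not pass in edgeR and passed in DESeq2 (0.00388, 0.00619 and 0.00151), in limma voom (0.0118, 0.0161 and 0.0126) and in edgeR with no filter (0.00353, 0.0215 and 0.0345). With the replicate number as a block Trac passed too (0.0470, where 0.644% of all tested genes were called higher).

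These differences are per library. When libraries were scaled to the sum of Trac, Trbc1 and Trbc2, which gives use per alpha-beta constant count, the median of all genes moved to -3.997 on the log2 scale and no segment was called higher. Trbv1 had 1.63 ± 1.37 on that scale (adjusted p = 0.243) and Trbv13-2 had 1.29 ± 1.37 (0.352). Trbc1 had -0.26 and Trbc2 -0.01; the scaling holds the sum of these segments fixed, so values near 0 follow by construction. The gamma constant Tcrg-C4 (-5.44 ± 1.39, adjusted p = 0.000712), Trbv2 (-3.54 ± 1.45, 0.0195) and Trav5-1 (-3.84 ± 1.45, 0.0117) were called lower there, where 92.0% of all tested genes were.

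The make-up of the receptor counts differed between the groups as well. Constant segments held 84.9%, 80.2%, 82.9%, 79.3% and 82.0% of receptor counts in Tumor 1 to 5, against 38.8%, 70.3%, 58.0%, 77.3% and 32.7% in WT 1 to 5. The groups did not overlap, with means of 81.9 ± 2.22% in Tumor and 55.4 ± 19.4% in WT (SD, n = 5 each). How far background counts, whose level is given below, account for the lower WT shares was not tested. In the alpha locus WT 1 and WT 5 had only 25 and 6 Trac counts, which limits the ratios there. Counts on Trav segments per Trac count were 0.278, 0.380, 0.233, 0.215 and 0.377 in Tumor, against 7.20, 0.523, 1.88, 0.794 and 34 in WT. No WT library lay within the Tumor range, and in WT 1, WT 3 and WT 5 the V counts exceeded those of the constant segment. In the beta locus Trbv counts per Trbc1 and Trbc2 count were 0.0863 to 0.139 in Tumor and 0.418, 0.259, 0.0664, 0.0586 and 0.690 in WT, so the groups overlapped.

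**Figure D2:**
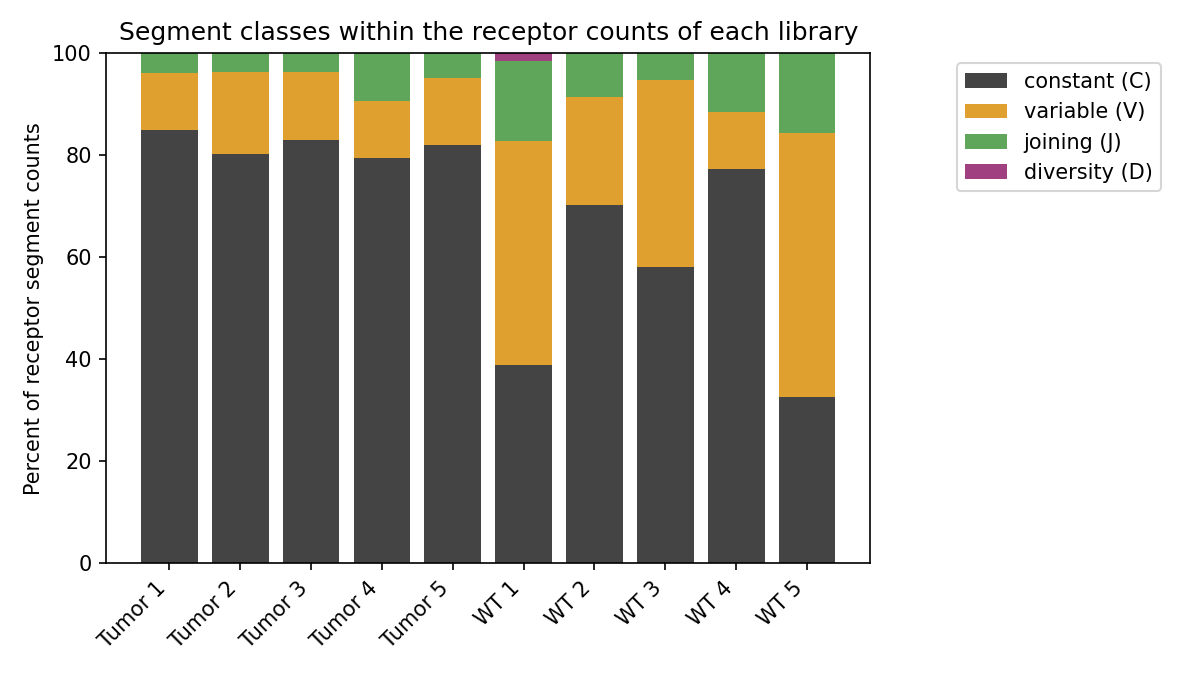
Percent of the receptor counts of each library that fell on constant, variable, joining and diversity segments, as stacked bars that add up to 100%, Tumor libraries left of WT libraries. Constant segments take 79.3 to 84.9% in Tumor and 32.7 to 77.3% in WT, with the smallest shares in WT 5 and WT 1.

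Gene models that give no receptor chain in a T cell set a level to read these V counts against. V pseudogenes, which cannot encode a receptor chain, had 0.130 to 4.61 CPM per kilobase of gene length in Tumor and 0.757 to 5.56 in WT, and 1466 olfactory and vomeronasal receptor genes had 0.837 to 2.20 in Tumor and 1.05 to 5.32 in WT. All 144 annotated V genes had 3.06, 5.54, 5.51, 4.42 and 3.55 CPM per kilobase in Tumor and 1.02, 1.24, 4.58, 1.37 and 3.26 in WT. The V genes thus stood above the olfactory genes in all 5 Tumor libraries and in 1 WT library, WT 2. They stood above the V pseudogenes in 4 Tumor libraries, all but Tumor 5, and in 3 WT libraries, WT 1, WT 2 and WT 3, by 1.03 to 1.64 times in WT. Constant genes stood above both in every library, at 118 to 194 CPM per kilobase in Tumor and 4.64 to 52.1 in WT. The loci differed: Trbv genes had 9.60 to 18.8 CPM per kilobase in Tumor and 1.62 to 5.41 in WT, against 0 to 2.43 and 0 to 1.51 for Trbv pseudogenes, whereas Trav genes had 1.90 to 3.52 in Tumor and 0.670 to 5.52 in WT, against 0.225 to 6.32 and 0.633 to 8.41 for Trav pseudogenes. Trav counts in Tumor 4 and Tumor 5 and in WT 1, WT 3, WT 4 and WT 5 therefore did not exceed those of Trav pseudogenes per kilobase, and single Trav values there are read as counts and not as receptor use. The same holds for WT 2, where Trav genes (0.670) stood above the Trav pseudogenes (0.633) but below the olfactory genes (1.05). In Tumor 1 the Trav genes stood little above the olfactory genes (1.91 against 1.83). Trbv genes stood above the olfactory genes in every Tumor library and in WT 2, WT 4 and WT 5. They stood below them in WT 1 (1.62 against 1.71) and WT 3 (2.14 against 5.32). Single Trbv values in WT 1 and WT 3 are likewise read as counts and not as receptor use.

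**Figure D3:**
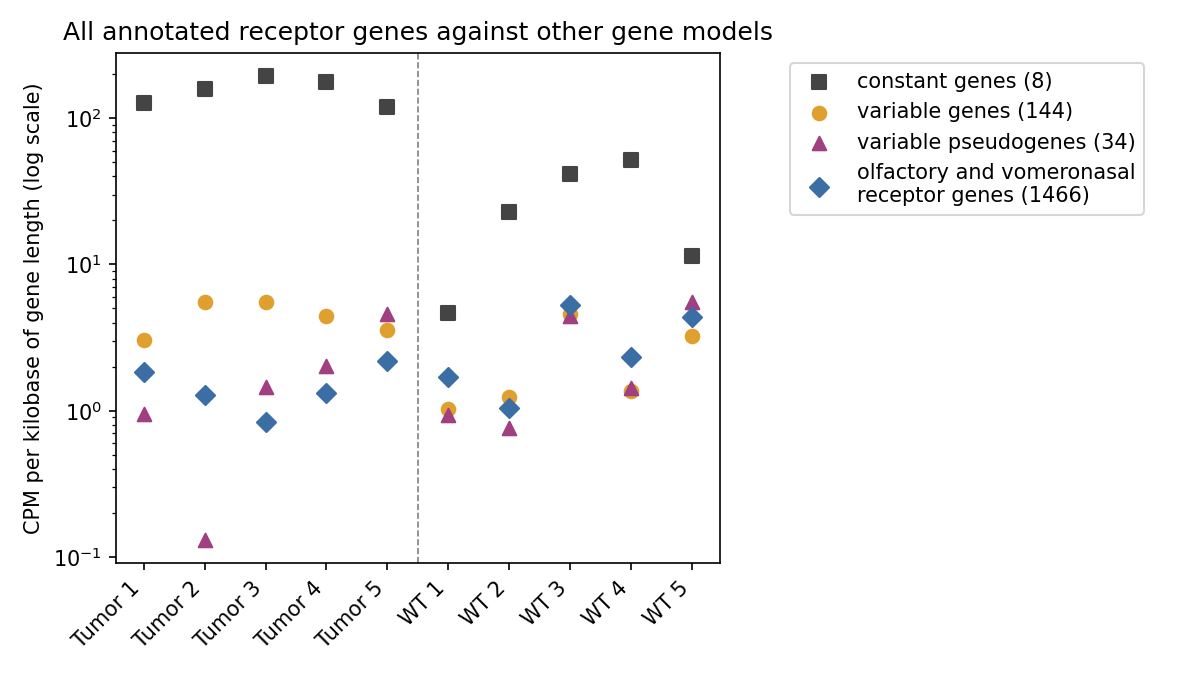
CPM per kilobase of gene length (log scale) in each library, Tumor left of the dashed line and WT right of it, for all annotated constant genes, V genes, V pseudogenes and olfactory or vomeronasal receptor genes. Constant genes are highest throughout, and the V genes stand above the olfactory genes in every Tumor library, while WT 2 is the only WT library where they do; in Tumor 5 the V pseudogenes (4.61) exceed the V genes (3.55).

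Among beta V segments, Trbv16 took the largest share in 9 of the 10 libraries. Trbv16 had 88, 128, 271, 118 and 126 counts in Tumor 1 to 5 and 1, 102, 21, 53 and 33 counts in WT 1 to 5. As a share of Trbv counts this was 27.3%, 26.2%, 21.9%, 14% and 28.3% in Tumor, against 1.27%, 30.6%, 67.7%, 77.9% and 41.3% in WT. WT 1 was led by Trbv13-3 with 14 of 79 counts. The shares of WT 3 and WT 4 rest on 31 and 68 Trbv counts, with 95% Wilson intervals of 50.1 to 81.4% and 66.7 to 86.2%, while Tumor libraries had 322 to 1238. These intervals cover counting error only, since reads without molecular identifiers are not independent molecules. Trbv16 had 30.3 ± 8.90 CPM in Tumor and 12.7 ± 7.83 CPM in WT, without overlap, and its fitted difference did not pass (1.55 ± 0.73, adjusted p = 0.303); it was -1.42 when libraries were scaled to 14 pan-T genes, a scaling that moves the median of all genes to -3.51.

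Trbv1 and Trbv13-2 had larger shares of the beta V counts in every Tumor library than in any WT library. Trbv1 had 60, 122, 174, 71 and 30 counts in Tumor 1 to 5, or 18.6%, 25.0%, 14.1%, 8.42% and 6.74% of Trbv counts. In WT 1 to 5 it had 1, 14, 0, 2 and 1 counts, or 1.27%, 4.20%, 0%, 2.94% and 1.25%. Trbv13-2 had 30, 33, 116, 46 and 69 counts in Tumor (5.46 to 15.5% of Trbv counts) and 0, 16, 0, 0 and 1 counts in WT (0 to 4.80%). For both, 0 of 31 counts in WT 3 allows a share of up to 9.68%, which is above the share of Trbv1 in 2 Tumor libraries and of Trbv13-2 in 4. Both segments are among those that pair with the invariant alpha chain of natural killer T cells, and both are also used by conventional T cells. Trbv26 had 34, 6, 99, 84 and 16 counts in Tumor and 2, 0, 0, 1 and 0 in WT; it did not pass the filter on low counts, and in the fit with no filter it was called higher (5.73 ± 1.49, adjusted p = 0.0187).

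Other Trbv segments were high in single libraries. Trbv2 had 6, 1, 87, 43 and 49 counts in Tumor and 1, 27, 0, 0 and 32 in WT, where WT 5 had 32 of its 80 Trbv counts on it. Trbv12-2 had 10, 80, 65, 38 and 0 counts in Tumor and 2, 22, 0, 0 and 0 in WT. Trbv19 had 2, 40, 26, 35 and 58 counts in Tumor and 1, 54, 0, 1 and 0 in WT. None of these passed (adjusted p = 0.730, 0.203 and 0.381), and their groups overlapped. Thinned to 31 counts, the smallest Trbv total, a library was expected to show 10.4, 8.43, 12.2, 13.9 and 8.96 of the 20 Trbv segments in Tumor, against 12.0, 11.2, 7, 5.59 and 6.74 in WT. The group means, 10.8 ± 2.27 and 8.51 ± 2.89, differed by less than the WT SD. Across the 20 segments, the Pearson correlation of usage between libraries had a median of 0.75 over 10 Tumor pairs, 0.68 over 10 WT pairs and 0.62 over 25 pairs of a Tumor and a WT library; these values share libraries and are a description.

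**Figure D4:**
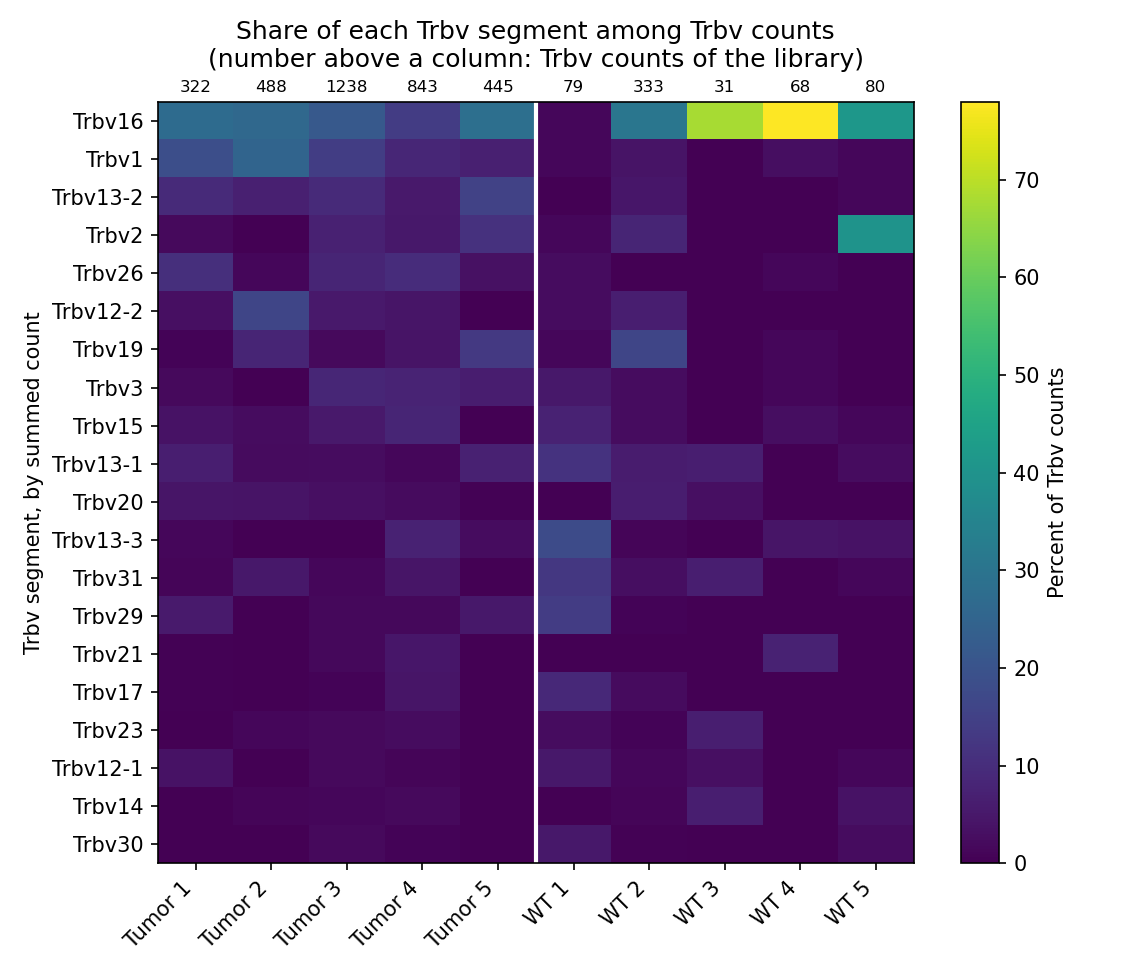
Share of each of the 20 Trbv segments (rows) among the Trbv counts of each library (columns, Tumor left of the white line and WT right), in percent, with the number of Trbv counts above each column. Trbv16 takes the largest share in all libraries but WT 1. Trbv1 and Trbv13-2 reach at least 5.46% in each Tumor column and at most 4.80% in a WT column, and the WT columns rest on 31 to 333 counts.

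The alpha V segments had no common leader: a different Trav segment took the largest share in each of the 10 libraries. In Tumor 1 to 5 these were Trav12-3 (18.4%), Trav13-1 (12.2%), Trav7d-4 (8.75%), Trav17 (12.4%) and Trav8d-1 (17.4%). In WT 1 to 5 they were Trav5-1 (10.6%), Trav7-3 (9.68%), Trav13d-4 (34.9%), Trav14d-3-dv8 (20.4%) and Trav7-6 (55.9%). Trav13d-4 had 133 of its 154 counts in WT 3, and Trav7-6 had 114 and 70 of its 246 in WT 5 and WT 3. Of the other segments with a high mean share, Trav9-1 had 14, 3, 85, 28 and 10 counts in Tumor 1 to 5 and 2, 5, 0, 10 and 1 in WT 1 to 5. Trav6-2 had 0, 0, 3, 23 and 0 in Tumor and 14, 21, 1, 5 and 5 in WT. Both overlapped between groups in CPM. Of the 57 Trav segments, 31 had more counts in 1 library than in the other 9 together, against 4 of the 20 Trbv segments. Median correlations of Trav usage were 0.13 over Tumor pairs, 0.19 over WT pairs and -0.01 over mixed pairs.

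Only 2 Trav segments passed the filter on low counts. Trav13-1 had 21, 54, 23, 25 and 40 counts in Tumor and 12, 1, 25, 1 and 1 in WT (log2 fold change 1.58 ± 1.09, adjusted p = 0.484), and Trav5-1 had 12, 13, 31, 1 and 1 in Tumor and 19, 0, 2, 13 and 2 in WT (0.35 ± 1.16, 0.905). Both overlapped between groups. Trav13-1 shares 45.4% of its runs of 50 bases with other genes, while Trav5-1 shares none. Thinned to 108 counts, libraries were expected to show 26.0, 26.2, 35.2, 25.4 and 22.6 of the 57 Trav segments in Tumor, against 26.0, 28.9, 12.2, 27.0 and 23.2 in WT. WT 3 stood low and Tumor 3 high, and the rest lay together.

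Among J segments, Traj12 and Traj27 had the highest mean shares of Traj counts in Tumor. As a level to read these against, all J genes had 15.1, 19.3, 22.3, 52.4 and 17.5 CPM per kilobase in Tumor and 6.12, 7.04, 9.27, 19.2 and 14.96 in WT. The 10 J pseudogenes had 16.0, 6.59, 17.7, 29.9 and 5.54 in Tumor and 8.09, 2.63, 0, 5.96 and 5.79 in WT. In Tumor 1 and WT 1 the J genes did not exceed the J pseudogenes, and single J values there are read as counts and not as receptor use. Traj12 had 30, 29, 106, 165 and 35 counts in Tumor 1 to 5, or 13.7 to 17.4% of Traj counts, against 3, 45, 0, 37 and 2 counts in WT 1 to 5, or 0 to 23.8%. Traj27 had 19, 45, 63, 163 and 14 counts in Tumor and 7, 7, 0, 21 and 5 in WT. The Traj12 share was nearly even across the Tumor libraries and spread widely across WT. Neither passed (1.80 ± 1.01, adjusted p = 0.388, and 2.40 ± 1.03, 0.260). Traj15 had 15, 11, 46, 66 and 23 counts in Tumor and 6, 9, 1, 1 and 2 in WT, without overlap in CPM, and did not pass either (2.84 ± 0.90, adjusted p = 0.130). Traj6 led WT 5 with 65 of 92 Traj counts (70.7%) and Traj46 led WT 3 with 28 of 55 (50.9%). Both also had counts in other libraries, with 138 and 91 counts over all 10. Traj45 led Tumor 5 with 52 of 256 counts (20.3%), and Traj2 led WT 1 with 9 of 92 (9.78%).

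Beta J and D segments are short and had few counts. The 7 Trbj segments together had 17, 33, 55, 26 and 19 counts in Tumor and 12, 39, 7, 41 and 1 in WT. Trbj2-7 had 6, 4, 17, 5 and 12 counts in Tumor and 0, 2, 0, 0 and 0 in WT, and Trbj2-1 had 2, 3, 15, 12 and 5 in Tumor and 3, 12, 5, 0 and 0 in WT. Trbj1-6 had 0, 0, 13, 0 and 1 in Tumor and 5, 1, 0, 17 and 1 in WT. No Trbj segment passed the filter on low counts. The D segment Trbd1, of 12 bases (gggacagggggc), had 1, 0, 7, 4 and 3 counts in Tumor and 11, 1, 0, 1 and 0 in WT.

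Of the fixed receptors, the J segments had more counts than the V segments over all 10 libraries. Trav11 and Trav11d, the V segments of the invariant natural killer T cell chain, had 3 and 4 counts over all 10 libraries, all in Tumor, and are below the threshold. Its J segment Traj18 had 39, 5, 98, 138 and 7 counts in Tumor and 8, 9, 0, 38 and 0 in WT, which overlapped. Of the mucosal-associated invariant chain, Traj33 had 20, 27, 2, 67 and 0 counts in Tumor and 2, 13, 0, 3 and 0 in WT, and Trav1 had 3, 0, 1, 17 and 3 in Tumor and 1, 0, 0, 4 and 17 in WT. Counts per segment do not show which V and J were joined in 1 transcript.

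The gate selects CD4 cells, and gamma-delta T cells mostly lack CD4, so gamma and delta segments were examined by library. They held 0.846%, 1.09%, 0.797%, 5.22% and 1.03% of receptor counts in Tumor 1 to 5, against 11.6%, 6.90%, 1.04%, 5.20% and 15.6% in WT 1 to 5. The groups overlapped, at 1.80 ± 1.92% in Tumor and 8.06 ± 5.65% in WT (SD, n = 5 each). The difference shrank per kilobase of gene length, to 0.997 ± 0.735% and 2.78 ± 1.54%, and grew among constant segments alone, to 1.72 ± 2.02% and 13.6 ± 14.3%. Measured against the library total in place of the receptor counts, gamma segments had 8.71, 18, 10.3, 102.5 and 12.8 CPM in Tumor and 9.27, 16.5, 7.16, 33.7 and 51.2 CPM in WT. The gamma and delta segments were not set against a background level of their own. In WT 1, WT 3 and WT 5 the olfactory level over all 128 segments was 76.2, 237 and 195 CPM. The receptor counts found there were 116, 690 and 340 CPM. Gamma and delta shares in these libraries are therefore read as counts and not as receptor use.

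Tumor 4 stood apart. Tcrg-C1, a gamma constant segment, had 3, 1, 22, 284 and 7 counts in Tumor 1 to 5 and 10, 3, 0, 9 and 3 in WT 1 to 5. Tcrg-C2 had 14, 0, 15, 171 and 0 in Tumor and 0, 59, 1, 12 and 5 in WT. The V segments Trgv2 (51 of 82 counts) and Tcrg-V4 (32 of 40) also had most of their counts in Tumor 4, while Tcrg-V1 had 3 of its 42 there. Tcrg-V4 had 0 counts in every WT library, which allows up to 0.148 CPM over the group. The delta constant Trdc had 7, 0, 41, 23 and 1 counts in Tumor and 4, 44, 0, 0 and 1 in WT, so that Tumor 4 was not the highest. In Tumor 4 Il17a, a cytokine gene of T helper 17 and many gamma-delta T cells, had 1201 counts, or 207 CPM. The other Tumor libraries had 16.0 to 140 CPM of Il17a and WT libraries 0 to 1.48 CPM. The CD8 gene Cd8a had 421 counts in Tumor 4, or 72.7 CPM, against 0 to 10.3 CPM in the other Tumor libraries. WT libraries had 0.741 to 61.6 CPM of Cd8a, so that WT 5 came near Tumor 4. Cd8b1, which encodes the other CD8 chain, did not stand out in Tumor 4, with 53 counts, or 9.15 CPM. The other Tumor libraries had 3.59 to 23.0 CPM of Cd8b1 and WT libraries 1.05 to 5.56 CPM. The part of other T cells in these values was not tested.

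The remaining gamma constant segments had their counts elsewhere. Tcrg-C4, the gamma constant without shared 50-base runs, had 0, 2, 23, 53 and 29 counts in Tumor and 16, 65, 0, 33 and 60 in WT (-1.31 ± 1.15, adjusted p = 0.589). Tcrg-C3 had 50 of its 92 counts in Tumor 2. Tcrg-C1, Tcrg-C2 and Tcrg-C3 share 25.4 to 36.2% of their 50-base runs with each other, so their split is uncertain. Of the other gamma-delta T cell markers, Blk had 18.8 CPM in Tumor 4, against 0 to 7.43 CPM in the other Tumor libraries and 0.713 to 56.7 CPM in WT. Sox13 had 8.63 CPM there, against 2.45 to 16.4 and 5.37 to 62.8 CPM, and Cd163l1 had 8.11 CPM, against 2.25 to 26.4 and 4.99 to 64.4 CPM. The 7 genes of the gamma-delta marker list found in the table summed to 13.8 to 127 CPM in Tumor and 47.9 to 170 CPM in WT.

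**Figure D5:**
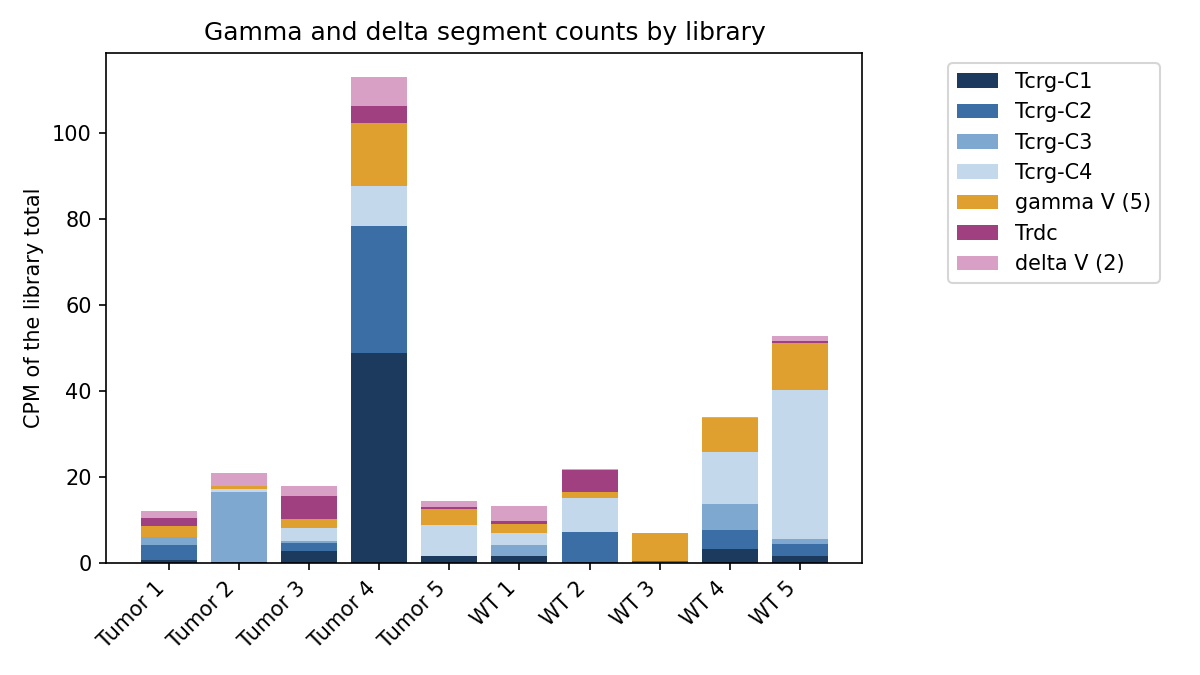
CPM of the library total on gamma and delta segments in each library, Tumor left and WT right, stacked by segment. Tumor 4 reaches the highest level through Tcrg-C1 and Tcrg-C2, WT 5 is led by Tcrg-C4, and the groups overlap.

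Genes that act with the receptor were read from a list of 16, of which 14 passed the filter. Of these, 5 were called higher in Tumor and 0 lower, where 1.37% and 0.219% of all tested genes were. Tumor libraries alone can meet the filter here too, so the number called says little about these genes as a group. The median log2 fold change was 2.39 over the 14, beside -0.20 over all tested genes. The called genes were the CD3 chain genes Cd3d (3.25 ± 0.80, adjusted p = 0.0460) and Cd3g (3.78 ± 0.73, 0.0153), Cd247, which encodes the zeta chain (3.29 ± 0.66, 0.0176), the kinase gene Zap70 (2.82 ± 0.66, 0.0342) and the adaptor gene Lat (3.50 ± 0.70, 0.0178). None of the 14 was called higher with libraries scaled to pan-T genes, a list that holds 9 of the same genes, and 3 were called lower, where 89.2% of all tested genes were. The median of the 14 was then -0.58, beside -3.51 over all tested genes. Without Tumor 2, Tumor 3 or WT 1, 0 of the 14 were called, where 0.266 to 0.317% of all tested genes were called higher. DESeq2 called 8 higher and 1 lower (3.16% and 4.48% of all tested genes), and limma voom 8 and 0 (2.12% and 0.112%). In edgeR, 7 were called higher and 1 lower without WT 1 and WT 2 (6.40% and 1.50%). Without WT 3, WT 4 and WT 5 it called 10 higher and 0 lower (2.32% and 2.09%).

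The genes of the recombination step itself were not higher in Tumor. Rag1, a subunit of the recombinase, had 16, 11, 24, 38 and 6 counts in Tumor 1 to 5 and 29, 19, 22, 10 and 178 in WT 1 to 5 (-2.29 ± 0.95, adjusted p = 0.247). Rag2, the other subunit, had 2, 0, 0, 2 and 0 counts in Tumor and 22, 4, 2, 7 and 62 in WT, with WT 5 again the highest. Dntt, which encodes the polymerase that adds bases at the joins, had 6, 2, 12, 23 and 1 counts in Tumor and 25, 73, 140, 20 and 26 in WT. In CPM the 5 Tumor libraries all lay below the 5 WT libraries for Dntt, and the test was not passed in edgeR (-3.47 ± 0.98, adjusted p = 0.0843). On TMM-scaled CPM 1.57% of all tested genes lay lower in Tumor without overlap. Rag1, Rag2 and Dntt were not set against the olfactory level, which averaged 1.49 CPM per kilobase in Tumor and 2.96 in WT.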

How the data were processed

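The deposited values were whole-number read counts per gene in 10 libraries, not normalized, made by the authors. The submitters' processing notes name mm10 and the tools HISAT2 2.0.5 and featureCounts 1.5.0-p3. Which annotation was used, if strand was counted, and how reads matching several genes were treated are not given in the sources used here. Groups and replicate numbers came from the sample titles. The 10 single-sample files held the same values as the series table, and all 45 pairs of libraries differed by more than counting noise (chi-square over its degrees of freedom 29.8 or more). Trdc, Trdv2-2, Tcrg-V4 and Tcrg-V7 overlap a gene on the opposite strand, so their counts are uncertain.

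The segments and gene lists were chosen with earlier results of these data known. Segments named are all constant segments, those with the highest mean share of their class in each group (3 Trav, 3 Trbv, 2 Traj, 2 Trbj), the leading Trav and Trbv of each library, the most abundant gamma and delta V segments, called segments and the segments of invariant receptors; Trbv26, Trbv12-2, Trbv19, Traj15, Traj45 and Traj2 were added after their values were seen. Tests used edgeR 4.0.16 in R 4.3.3 (filterByExpr with a minimum count of 10 and total of 15, TMM, robust quasi-likelihood F test, 2-sided, Benjamini-Hochberg over 21414 genes, call below 0.05). An SE is the log2 fold change divided by the square root of F. The code was also run on simulated counts with a set spread, which does not show how the test behaves on these libraries. Sums and shares over segments are given without a test. Alternatives were other scalings and filters, DESeq2 1.42.0, limma voom 3.58.1, the replicate number as a block, each library left out, and, added after the data were seen, WT 1 and 2 or WT 3 to 5 left out.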

Additional observations from a re-analysis of the deposited data

Results flagged for a closer look

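In 50 groups of 5 libraries, 7 had a library whose gap to the nearest other exceeded 0.71 of the group's range. Tumor 4 was the highest of its group in 4 of them: 28.5 CPM of Traj12 (7.69 to 13.7 CPM in the other Tumor libraries), 29.5 CPM of Tcrg-C2 (0 to 3.59 CPM), 5.22% of receptor counts on gamma and delta segments (0.797 to 1.09%) and 102.5 CPM of gamma segments (8.71 to 18 CPM). Tumor 3 had the most Trav segments expected in 108 counts, 35.2 (22.6 to 26.2 in the others). In WT, WT 5 had 18.4 CPM of Trbv2 (0 to 3.21 CPM) and WT 3 had 14.9 CPM of Trav13-1 (0.119 to 2.10 CPM). A gap of this size arises in about 1 in 20 groups of independent, normally distributed values. These CPM and shares are not known to be such values, and the groups of gamma segments share counts. That rate is therefore not claimed here. No cause was tested.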

How the results depend on the processing

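Of 128 segments, 2 were called higher and 0 lower in Tumor. Of the 16 tested, the number called higher was 1 with RLE, upper-quartile or no composition factors (0.985 to 1.06% of all tested genes higher), 5 with DESeq2 (3.16%) and 5 with limma voom (2.12%). It was 0 scaled to pan-T genes (2 lower, where 89.2% of all genes were) and 0 scaled to Trac, Trbc1 and Trbc2 (3 lower, where 92.0% were). Other filters and sets of libraries also changed the number of segments tested. It was 6 higher and 1 lower of 128 with no filter (0.934% and 0.665% of all genes), 0 of 4 with 10 CPM required in 5 libraries (2.10% higher), 7 higher and 1 lower of 34 without WT 1 and 2 (6.40% and 1.50%), 3 of 77 without WT 3 to 5 (2.32%), and 0 to 3 of 18 to 27 with 1 library left out (0.266 to 1.52%). The cause was not tested. Replicate numbers did not pair the libraries (same-number correlations -0.126 to 0.038); with the replicate block 2 were called higher (Trac and Trbv1) and 0 lower.

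Of 276 values of 13 named segments under the alternatives, 224 kept their direction and side of the threshold, 19 lost the call, 16 gained one and 17 changed sign. Scaled to Trac, Trbc1 and Trbc2 the log2 fold changes were -0.0097 for Trbc2, -0.26 for Trbc1, -1.92 for Trbv16, -0.94 for Traj12, -1.18 for Traj27, -1.91 for Tcrg-C2, -3.54 for Trbv2, -1.80 for Trav13-1 and -3.84 for Trav5-1. Scaled to pan-T genes they were -1.42 for Trbv16, -0.84 for Traj12, -0.62 for Traj27, -1.73 for Tcrg-C2, -2.65 for Trbv2, -1.45 for Trav13-1 and -3.28 for Trav5-1. These scalings move the median of all genes to -3.997 and -3.51. With 1 library left out Tcrg-C2 had -0.91 (without Tumor 4) to 2.02.

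The gamma and delta share, Tumor minus WT, was -6.26 points, -11.9 among constant segments and -1.78 per kilobase, and -8.02 to -4.38 with 1 library left out. With 1 library left out the log2 ratio of receptor counts was 1.88 to 2.37, the constant share 20.8 to 31.9 points, the leading Trbv share -30.8 to -15.8 and the leading Trav share -16.6 to -5.04 points, and the thinned number of Trbv 1.49 to 3.14 and of Trav 0.800 to 4.97. V and J shares in WT rest on as few as 31 counts.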
